A study of Mus musculus with 6 samples.

Results

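Arc, Npas4, Bdnf, Nptx2, Homer1 and Inhba are 6 genes that neurons induce when they are active. Npas4 codes for a transcription factor, and the others code for proteins acting at synapses or on neuronal wiring. All 6 were chosen by name as activity-induced effectors, as against the general early transcription factors. All 6 were found among the 14250 rows of the count table. RNA came from the anterior cingulate cortex (ACC, a midline frontal area) of C57BL/6 mice aged 45 postnatal days, 3 in the LPS group (lipopolysaccharide, an endotoxin of Gram-negative bacteria) and 3 in the Saline group, with 1 mouse per library. The injection was into the peritoneum on postnatal day 14, at 50 µg per kg for LPS and with pyrogen-free saline for the others, and both groups were otherwise described alike. Brains were perfused with cold buffer under anaesthesia and the ACC was cut out by hand. The labels used here give no sex, litter or hour of collection. The series concerns early inflammation, microglia and dendritic spines in adolescence.

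Synaptic activity opens calcium entry routes, and calcium signals act through the transcription factors CREB, SRF and MEF2 on a set of inducible genes. Some of these code for further transcription factors, such as Npas4, and others for effectors that change the synapse directly: Arc removes AMPA-type glutamate receptors from the membrane, Nptx2 (Narp) clusters them, Homer1 scaffolds metabotropic glutamate receptors, and BDNF and activin A (the dimer of the Inhba product) are secreted signals. Arc and Npas4 transcripts appear within minutes of stimulation and decay quickly. Bdnf has several promoters and Homer1 has short and long forms, and a count per gene does not separate these.

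The libraries held 36168687 to 41270737 counts in LPS mice and 37416194 to 39804999 counts in Saline mice. The markers of cortical excitatory neurons matched the labelled tissue in every library, with Slc17a7, the vesicular glutamate transporter gene, at 1653 to 1735 CPM in LPS libraries and 1521 to 1705 CPM in Saline libraries (CPM, counts scaled to a common library size with TMM factors). The summed level of the 10 excitatory markers was 7661 to 8173 CPM in LPS and 7426 to 8498 CPM in Saline libraries, and that of 7 measured striatal markers 131 to 143 CPM and 138 to 139 CPM, with Drd2 at most at 2.94 CPM. The 3 measured hippocampal markers of 6 summed to 77.4, 177 and 95.3 CPM in LPS 1, LPS 2 and LPS 3, and to 107, 178 and 191 CPM in Saline 1, Saline 2 and Saline 3, most of it Wfs1. The 10 inhibitory neuron markers summed to 807 to 868 CPM in LPS and 728 to 803 CPM in Saline libraries, so this sum separated the groups. Of the 10, 0 passed the main test (edgeR), and 9 had a positive log2 change, as did 7186 of all 14250 rows. An unadjusted edgeR p below 0.05 was found for 4, all higher (3.63% of all rows). In 5, every LPS library lay above every Saline library, where 6.84% of all rows had this order. Reads in rows the authors named newGene made up 1.61% to 2.03% of LPS and 2.51% to 2.93% of Saline libraries. The heat shock genes Hspa1a and Hspa1b also separated the groups, at 9.70 to 12.5 and 12.3 to 12.7 CPM in LPS and 16.8 to 23.2 and 19.7 to 21.9 CPM in Saline libraries. The part of these shifts in the results was not tested, and in bulk tissue fewer cells of a type and less RNA per cell cannot be told apart.

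The members did not move together. Arc was lower in every LPS library, at about 0.300 of the Saline level, Npas4 was far lower in LPS 1 and LPS 3 but not in LPS 2, and Bdnf, Nptx2, Homer1 and Inhba stayed within 1.18-fold of Saline on average. By edgeR's quasi-likelihood test, adjusted over all rows at a threshold of 0.05, 0 of the 6 members passed, where 0.288% of the 14250 rows did. With the unadjusted edgeR p below 0.05 there were 1 lower (Arc) and 1 higher (Nptx2). Of all rows, 7.17% passed that limit, 3.54% lower and 3.63% higher. Arc and Npas4 had log2 changes below -1, which 0.463% of all rows reached. Arc alone passed in DESeq2 and in limma-voom. DESeq2 called 0.561% of all rows lower and 0.421% higher, and limma-voom 0.161% lower and 0.0772% higher. The share of all reads in the 6 genes was 0.0497% to 0.0650% in LPS libraries and 0.0818% to 0.111% in Saline libraries.

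**Figure D1:**
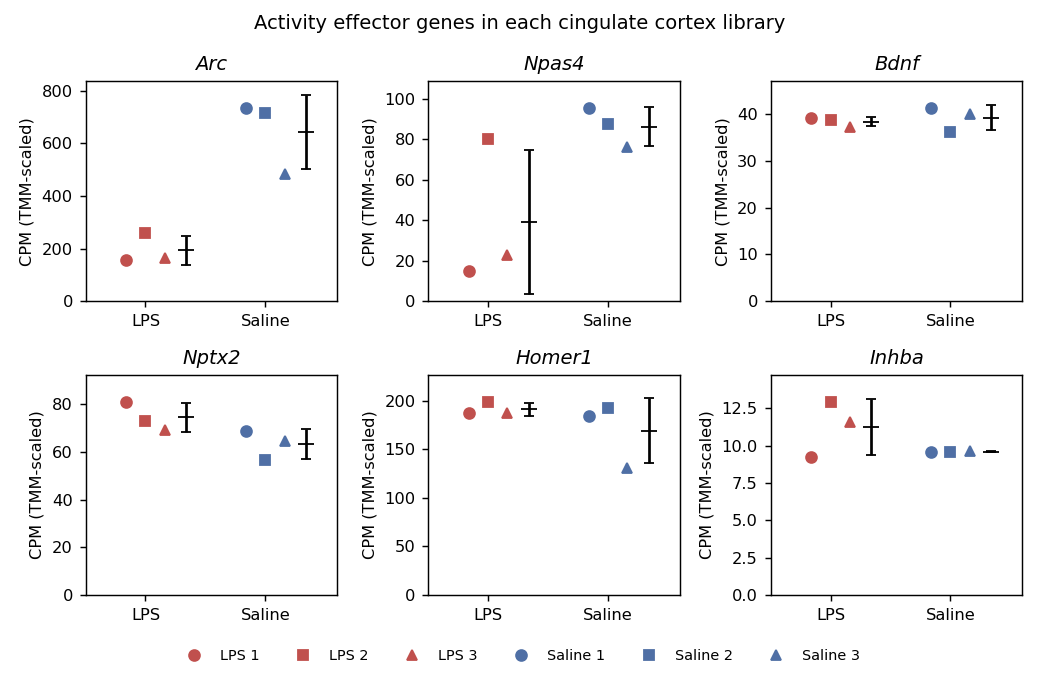
CPM of each member in each library, with LPS mice on the left and Saline mice on the right of each panel; symbols mark the replicate number, and the bar beside the points is the mean ± SD (n = 3 each). The LPS and Saline points are apart in Arc and Nptx2 and overlap in the other members.

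Arc (ENSMUSG00000022602, chr15:74669083-74672570, minus strand, GRCm38) codes for a cytoskeleton-associated protein that drives endocytosis of AMPA receptors. Its level was 158, 259 and 164 CPM in LPS 1, LPS 2 and LPS 3, against 734, 717 and 483 CPM in Saline 1, Saline 2 and Saline 3. The groups did not overlap, and the highest LPS library lay well under the lowest Saline library, Saline 3. In 6.84% of all rows every LPS library lay below every Saline library. The means were 193 ± 56.6 CPM in LPS and 645 ± 140 CPM in Saline mice (SD, n = 3 each), and the log2 change was -1.74 (SE 0.294, 95% interval -2.52 to -0.96). It ranked 20 of 14250 from the most negative log2 change. The edgeR adjusted p was 0.293, while DESeq2 gave 3.37e-06 and limma-voom 0.0392. edgeR without its robust option gave an adjusted p of 0.0439, and limma on the authors' FPKM 0.0263, so the call depends on the test and the size does not.

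Arc kept its direction with any library left out. The log2 change ran from -1.61 without LPS 1 to -2.01 without LPS 2, with edgeR adjusted p of 0.138 to 0.701. Per unit of length, Arc was the most abundant member in both groups. Its FPKM in the authors' columns was 57.6 ± 15.6 in LPS mice and 193 ± 39.6 in Saline mice (SD, n = 3 each), which ranked it 183 of 14250 rows in Saline.

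Npas4 (ENSMUSG00000045903, chr19:4984355-4990316, minus strand, GRCm38) codes for a neuronal transcription factor that depends on calcium entry and controls inhibitory synapses onto the activated cell. Its level was 14.9, 79.9 and 23.0 CPM in LPS 1, LPS 2 and LPS 3, against 95.3, 87.4 and 76.0 CPM in the Saline libraries 1, 2 and 3. LPS 2 thus lay inside the Saline range, while LPS 1 and LPS 3 were several times below it. The groups overlapped, and the spread within the LPS group, 2.42 on the log2 scale between the lowest and highest library, was wider than in 99.4% of all rows. The Saline spread was 0.33, against medians over all rows of 0.21 in LPS and 0.20 in Saline. The log2 change over all libraries was -1.13 (SE 0.732, 95% interval -3.13 to 0.86, edgeR adjusted p = 0.805), so no difference could be shown with all 6 libraries.

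The size of the Npas4 difference depended on the test and on which LPS library was left out. In limma-voom the log2 change was -1.51 (unadjusted p = 0.0174, adjusted p = 0.542), and in DESeq2 -1.14 (adjusted p = 0.902). Limma on FPKM gave -1.38 and -1.50 with a pseudocount of 1 and 0.1 (adjusted p = 0.650 and 0.663). Without LPS 2 the log2 change was -2.19 (SE 0.239, edgeR adjusted p = 0.115). Without LPS 1 it was -0.74 (SE 0.644, edgeR adjusted p = 0.836), and without LPS 3 it was -0.86 (SE 0.851, edgeR adjusted p = 0.904). Among rows with a mean of at least 50 counts, 163 of 13873 (1.17%) spanned more than 4-fold within a group, and Npas4 is one of them. The sum of the hippocampal markers was also highest in LPS 2 within the LPS group, through Wfs1 at 60.5, 157 and 72.4 CPM in LPS 1, LPS 2 and LPS 3, against 89.7, 159 and 171 CPM in Saline 1, Saline 2 and Saline 3; its part in the Npas4 values was not tested. LPS 2 was also the highest LPS library for Arc, by a smaller margin.

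**Figure D2:**
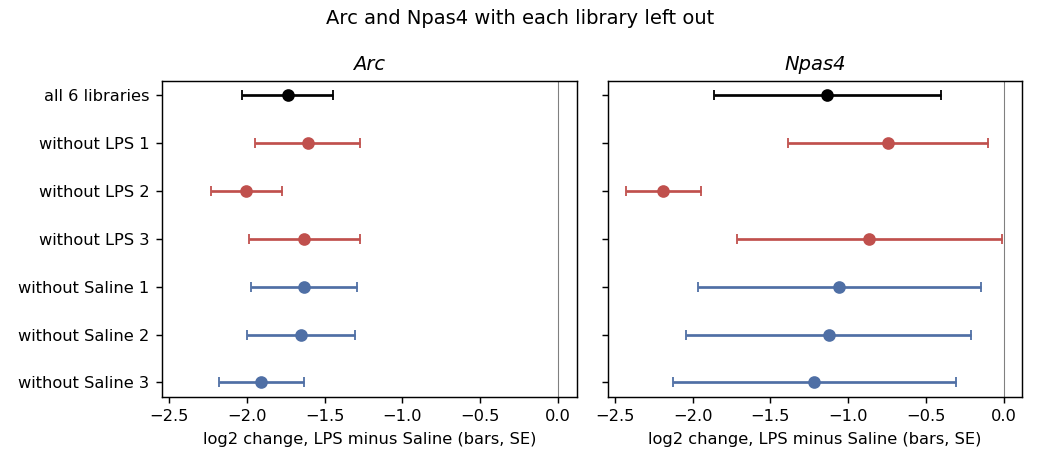
Log2 change (LPS minus Saline) of Arc and Npas4 by edgeR with all 6 libraries and with each library left out; bars are 1 SE, and the colours mark the group of the library left out. Arc stays between -1.61 and -2.01, and Npas4 moves to -2.19 without LPS 2, to -0.74 without LPS 1 and to -0.86 without LPS 3.

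Bdnf (ENSMUSG00000048482, chr2:109674700-109727007, plus strand, GRCm38) codes for brain-derived neurotrophic factor, a secreted growth factor that strengthens synapses through the receptor TrkB. It had 39.1, 38.6 and 37.2 CPM in LPS 1, LPS 2 and LPS 3, against 41.2, 36.1 and 40.1 CPM in Saline 1, Saline 2 and Saline 3. All LPS values lay inside the Saline range. The log2 change was -0.03 (SE 0.0726, edgeR adjusted p = 0.952) with a 95% interval of -0.19 to 0.13, so larger changes lie outside the interval. One Bdnf exon overlaps an exon of the antisense gene Gm45346, which was not among the tested rows, and the counting is not stated to use strand, so the gene and its antisense reads cannot be told apart. No exon of another member overlaps an exon of another gene in GENCODE M21.

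Homer1 (ENSMUSG00000007617, chr13:93299635-93405129, plus strand, GRCm38) codes for a postsynaptic scaffold whose short activity-induced form uncouples the long forms from their ligands. It had 188, 199 and 187 CPM in LPS 1, LPS 2 and LPS 3, against 184, 193 and 131 CPM in Saline 1, Saline 2 and Saline 3. The LPS libraries lay close together and overlapped the Saline range, in which Saline 3 stood below the others. The log2 change was 0.18 (SE 0.144, 95% interval -0.17 to 0.53, edgeR adjusted p = 0.832). Without Saline 3 it was 0.02.

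Nptx2 (ENSMUSG00000059991, chr5:144545902-144557478, plus strand, GRCm38) codes for a secreted neuronal pentraxin that gathers AMPA receptors, chiefly on parvalbumin interneurons. It had 81.1, 73.2 and 69.4 CPM in LPS 1, LPS 2 and LPS 3, against 68.9, 56.5 and 64.5 CPM in Saline 1, Saline 2 and Saline 3. Every LPS library lay above every Saline library, LPS 3 and Saline 1 being almost level, and 6.84% of all rows had this order. The log2 change was 0.24 (SE 0.0864, 95% interval 0.04 to 0.43), with an unadjusted p of 0.0221 and an edgeR adjusted p of 0.584. DESeq2 and limma-voom did not call it, with adjusted p of 0.532 and 0.635.

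Inhba (ENSMUSG00000041324, chr13:16011851-16031621, plus strand, GRCm38) codes for the inhibin beta A chain, whose dimer is activin A, a secreted factor of the TGF-beta family. It was the least abundant member and had 9.23, 12.9 and 11.6 CPM in LPS 1, LPS 2 and LPS 3, against 9.59, 9.59 and 9.62 CPM in Saline 1, Saline 2 and Saline 3. LPS 2 and LPS 3 were above and LPS 1 below all Saline libraries, which were almost equal. The log2 change was 0.23 (SE 0.131, 95% interval -0.06 to 0.52, edgeR adjusted p = 0.770).

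**Figure D3:**
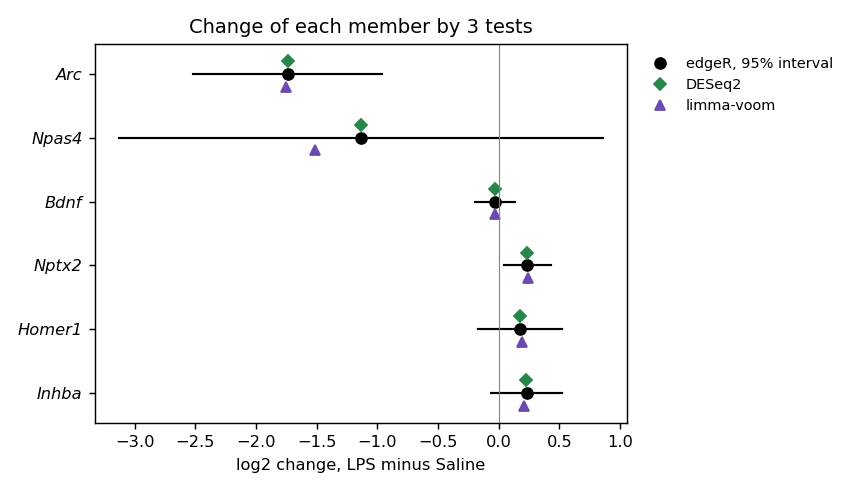
Log2 change of each member, LPS minus Saline, from edgeR (circle, with the 95% interval), DESeq2 (diamond) and limma-voom (triangle). Arc and Npas4 are on the negative side, Npas4 with an interval from -3.13 to 0.86, and the other members lie between -0.03 and 0.24.

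Per length, Arc came first in both groups, and the order of the means differed only in the places of Npas4 and Nptx2. In LPS mice the authors' FPKM averaged 57.6 for Arc, 45.5 for Homer1, 26.8 for Nptx2, 10.8 for Npas4, 8.62 for Bdnf and 1.69 for Inhba. In Saline mice it averaged 193 for Arc, 42.4 for Homer1, 24.1 for Npas4, 22.9 for Nptx2, 8.89 for Bdnf and 1.48 for Inhba. Npas4 and Nptx2 overlapped in Saline libraries, at 21.6 to 25.9 and 20.7 to 24.2 FPKM. In LPS libraries Npas4, at 4.22 to 21.8 FPKM, spanned the range of Bdnf, at 8.4 to 8.97 FPKM.

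The ratio of each member to Arc within a library shows the unequal change without any library scaling. The log2 ratio of Homer1 to Arc was 0.25, -0.38 and 0.19 in LPS 1, LPS 2 and LPS 3, against -2.00, -1.90 and -1.88 in Saline 1, Saline 2 and Saline 3. Homer1 CPM was thus close to that of Arc in LPS mice and several times lower than it in Saline mice, a comparison of CPM without length. The ratios of Bdnf, Nptx2 and Inhba to Arc were higher in LPS mice by 1.72, 1.99 and 1.97 on the log2 scale, and Homer1 by 1.95, each without overlap of the groups. The two-sided exact permutation p was 0.1 for each of these 4 ratios, the smallest that 3 against 3 libraries can give, and 0.125 after Benjamini-Hochberg adjustment over the 5 ratios. These are unequal changes against Arc, the member that differed most, and not separate evidence for each gene. The ratio of Npas4 to Arc was -3.40, -1.69 and -2.83 in LPS 1, LPS 2 and LPS 3, and -2.95, -3.04 and -2.67 in Saline 1, Saline 2 and Saline 3. It differed by 0.24 (exact permutation p = 0.800), and by -0.23 without LPS 2.

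**Figure D4:**
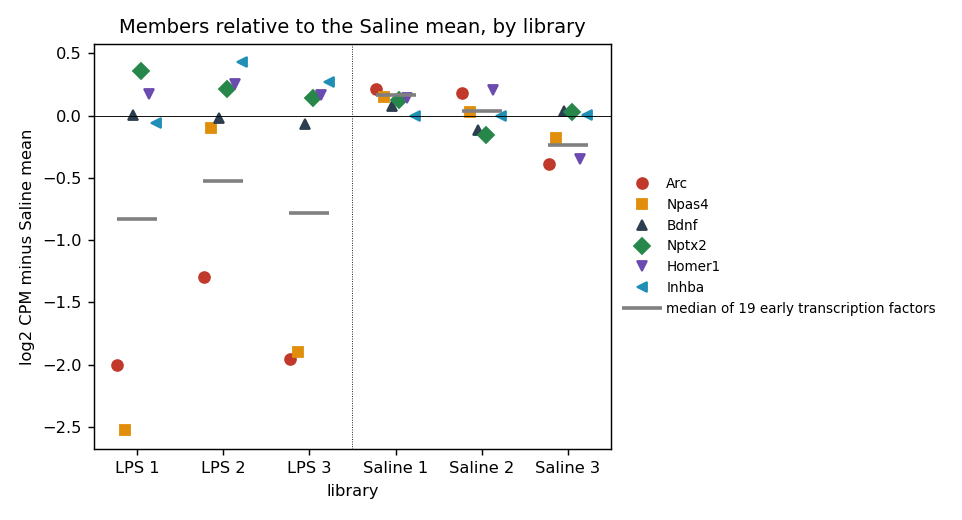
Log2 CPM of each member minus its Saline mean, by library, with the median of 19 early transcription factors as a grey bar. Arc lies at -2.01 and -1.95 in LPS 1 and LPS 3 and at -1.29 in LPS 2, Npas4 at -2.53, -1.90 and -0.10 in the same libraries, and Saline 3 is the lowest Saline library for Arc, Npas4 and Homer1.

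Within the groups, the early transcription factors kept a similar order to Arc. Their median relative to the Saline mean was -0.83, -0.52 and -0.78 in LPS 1, LPS 2 and LPS 3, and 0.16, 0.04 and -0.23 in Saline 1, Saline 2 and Saline 3. LPS 2 was the highest LPS library for 11 of these 19 genes, against 34.1% of all rows. Saline 3 was the lowest Saline library for 17 of them, against 34.2% of all rows.

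The rows nearest to Arc were sought among 12854 rows by the root mean square difference of log2 CPM, centred on each gene, over the 6 libraries. The nearest were Ier2 at 0.21, Dusp1 at 0.23, Junb at 0.28, Btg2 at 0.32 and Fos at 0.33. Ier2 had 9.92, 16.6 and 9.09 CPM in LPS 1, LPS 2 and LPS 3, against 34.5, 31.0 and 28.0 CPM in Saline 1, Saline 2 and Saline 3, the same order within LPS as Arc apart from the near tie of LPS 1 and LPS 3. All 5 are rapidly induced genes in textbook use. Exons of Dusp1 and Junb overlap those of another tested gene on the opposite strand. The longest overlap is 11 bases for Dusp1 and 173 bases for Junb, and reads in these stretches are uncertain. Rows picked for likeness to Arc had to differ between the groups, so their calls support nothing. Dusp1 passed in edgeR with all libraries and lost its call without LPS 1, Saline 1, Saline 2 or Saline 3 (adjusted p 0.0754 to 0.132). Npas4 was at 0.53 from Arc, and the other members at 0.92 to 1.05.

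The nearest rows to Npas4 were farther away, and 2 of the 5, Ier2 and Btg2, were also among the nearest to Arc. They were Ablim1, an actin-binding protein gene, at 0.35, Gas7 at 0.44, Ier2 at 0.49, Foxp1 at 0.52 and Btg2 at 0.56. Ablim1 had 46.2, 124 and 42.2 CPM in LPS 1, LPS 2 and LPS 3, against 164, 134 and 129 CPM in Saline 1, Saline 2 and Saline 3. Gas7, whose exons overlap those of another tested gene, had 120, 453 and 121 CPM in LPS 1, LPS 2 and LPS 3, against 313, 310 and 420 CPM in Saline 1, Saline 2 and Saline 3. In both, as in Npas4, LPS 2 stood several times above the other LPS libraries. Neither passed in edgeR with all libraries (adjusted p = 0.776 and 0.890). These rows were picked for a profile like that of Npas4, in which LPS 2 stands apart, so their values without LPS 2 describe that choice and test nothing. Without LPS 2, all 5 passed in edgeR, with log2 changes of -1.69 for Ablim1, -1.53 for Gas7, -1.71 for Ier2, -1.13 for Foxp1 and -2.26 for Btg2 (adjusted p = 0.000348 to 0.0383). Npas4 itself did not pass without LPS 2, as given above.

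Promoter sequence was looked at for the letters of the cyclic AMP response element (CRE), to which CREB binds. RefSeq's table (GRCm38.p6) held 11 promoters of 4 members, from 250 bases before to 50 after each start: 7 of Bdnf, 2 of Homer1 and 1 each of Npas4 and Inhba. Arc and Nptx2 had no entry. The CRE core TGACG, on either strand, was in 3 of the 11, and in 20.8% of the 32851 promoters of the table. The full CRE TGACGTCA, which contains the core on both strands, was in 0 of the 11 and in 1.79% of the table, and a CArG box, the SRF site, in 0 and in 1.63%. Npas4 held the core at 2 places, its leftmost base 179 and 169 bases before the start, and 5.01% of the table's promoters hold at least 2. The first Homer1 promoter held it at 3 places, 56, 40 and 14 bases before the start, and 1.03% of the table hold at least 3. Bdnf held it in the promoter of the third start, 35 bases before it, and Inhba held none. These matches are letters in a window and were found in members with a lower LPS level in part of the libraries (Npas4) as well as in members with little difference (Homer1 and Bdnf). The promoters with a core are shown with that of Inhba for contrast, 5′ to 3′ on the gene's strand, with the core in capitals: Npas4 at chr19:4989922-4990221 (minus), Homer1 at chr13:93303507-93303806 (plus), Bdnf at chr2:109692186-109692485 (plus) and Inhba at chr13:16011601-16011900 (plus).
Npas4: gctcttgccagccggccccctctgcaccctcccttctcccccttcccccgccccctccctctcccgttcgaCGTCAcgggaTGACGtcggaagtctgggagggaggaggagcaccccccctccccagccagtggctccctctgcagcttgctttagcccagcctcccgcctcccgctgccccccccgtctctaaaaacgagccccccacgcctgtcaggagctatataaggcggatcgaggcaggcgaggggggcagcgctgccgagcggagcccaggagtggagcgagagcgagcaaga
Homer1: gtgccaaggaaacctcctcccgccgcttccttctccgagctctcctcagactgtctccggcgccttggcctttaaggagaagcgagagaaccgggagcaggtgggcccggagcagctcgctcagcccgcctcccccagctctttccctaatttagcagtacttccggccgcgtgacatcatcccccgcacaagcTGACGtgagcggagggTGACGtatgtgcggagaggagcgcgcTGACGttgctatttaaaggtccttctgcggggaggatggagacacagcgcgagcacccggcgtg
Bdnf: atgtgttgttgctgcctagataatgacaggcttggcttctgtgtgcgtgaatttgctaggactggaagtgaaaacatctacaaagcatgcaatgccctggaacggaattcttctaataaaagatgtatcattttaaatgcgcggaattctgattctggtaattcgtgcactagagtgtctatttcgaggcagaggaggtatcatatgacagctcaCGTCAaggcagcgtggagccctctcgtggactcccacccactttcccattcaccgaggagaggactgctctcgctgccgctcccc
Inhba: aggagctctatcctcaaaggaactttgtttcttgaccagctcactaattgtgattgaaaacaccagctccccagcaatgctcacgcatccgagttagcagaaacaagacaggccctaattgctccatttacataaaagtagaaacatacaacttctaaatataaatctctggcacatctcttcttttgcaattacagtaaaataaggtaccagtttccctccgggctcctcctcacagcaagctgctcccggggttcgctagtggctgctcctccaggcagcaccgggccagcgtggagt

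Other activity-induced effectors shared the direction of Arc in part. Of 30 listed genes, all measured, 2 fell in edgeR (0.189% of all rows did) and 0 rose. The median log2 change was -0.11 against 0.00 over all rows. A negative change was found in 22 of the 30, and in 7064 of all 14250 rows. The list was chosen with earlier results of these data known, so these shares describe it and test nothing. Tiparp, an inducible poly-ADP-ribose polymerase gene, had 14.6, 15.1 and 14.7 CPM in LPS 1, LPS 2 and LPS 3, against 34.8, 31.0 and 23.6 CPM in Saline 1, Saline 2 and Saline 3 (log2 -1.01, SE 0.132, edgeR adjusted p = 0.0163). Trib1, a pseudokinase gene, had 30.0, 25.8 and 22.6 CPM in LPS 1, LPS 2 and LPS 3, against 58.8, 56.0 and 45.0 CPM in Saline 1, Saline 2 and Saline 3 (log2 -1.03, SE 0.132, edgeR adjusted p = 0.0263). Both genes separated the groups, and LPS 2 was not set apart in either. In 7 of the 30 every LPS library lay below every Saline library and in 3 above, where 6.84% of all rows had each order. Tiparp lost its call without LPS 1, LPS 2, LPS 3 or Saline 2 (edgeR adjusted p 0.0717 to 0.116), and Trib1 without LPS 2, LPS 3, Saline 1 or Saline 2 (0.0560 to 0.186). DESeq2 called 5 of the list lower, Plk2, Fbxo33 and Spry2 besides these, and 1 higher, Cdkn1a (log2 0.52).

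Plk2, a kinase gene that acts in the scaling down of excitatory synapses, lay just over the threshold. It had 149, 150 and 145 CPM in LPS 1, LPS 2 and LPS 3, against 189, 198 and 178 CPM in Saline 1, Saline 2 and Saline 3 (log2 -0.35, SE 0.0580, edgeR adjusted p = 0.0526). The groups did not overlap, and without Saline 3 the edgeR adjusted p was 0.0384. With any other library left out Plk2 did not pass, and its edgeR adjusted p reached 0.1765. Other inducible genes of the list did not pass. Log2 changes were -0.06 for Rgs2, a G protein regulator gene (SE 0.0797), -0.09 for Vgf, a neuropeptide precursor gene (SE 0.0848), and 0.03 for Scg2, secretogranin II (SE 0.0869), with edgeR adjusted p of 0.848 to 0.964. Ptgs2, the inducible cyclooxygenase gene, differed by -0.40 on the log2 scale (SE 0.107), with an edgeR adjusted p of 0.357.

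The early transcription factors, from which the effectors were set apart, had a larger share of calls. Of 19 genes, 4 fell in edgeR (Klf2, Nr4a1, Klf4 and Nr4a2), where 0.189% of all rows did, and 0 rose. All 19 log2 changes were negative, where 7064 of all 14250 rows were, and the median was -0.71. This list was chosen with earlier results of these data known, so its shares beside those of all rows are a description and test nothing. Klf2, a zinc finger factor gene, had 18.2, 17.1 and 16.5 CPM in LPS 1, LPS 2 and LPS 3, against 41.5, 37.0 and 33.2 CPM in Saline 1, Saline 2 and Saline 3 (log2 -1.11, edgeR adjusted p = 0.000954). In 13 of the list every LPS library lay below every Saline library, where 6.84% of all rows do. Arc, at -1.74, was lower than 18 of the 19, the exception being Atf3 (-2.09, mean of 31.0 counts). For Fos, an AP-1 subunit gene, the difference was -1.16 on the log2 scale (SE 0.175) with an edgeR adjusted p of 0.132, and for Egr1 it was -0.32 (SE 0.231) with 0.822. Nr4a1 lost its call without LPS 1, and Nr4a2 without LPS 3, Saline 1 or Saline 2, with edgeR adjusted p of 0.0563 to 0.0802. Without Saline 3, Csrnp1, Egr2 and Fosl2 passed as well (edgeR adjusted p 0.0135 to 0.0361). Atf3 passed without LPS 1 (edgeR adjusted p = 0.0487), and Ier2 without LPS 2 (edgeR adjusted p = 0.000639). With another library left out, the edgeR adjusted p rose as far as 0.963 for Csrnp1, 0.565 for Egr2 and 0.234 for Fosl2. It rose as far as 0.235 for Atf3 and 0.595 for Ier2.

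**Figure D5:**
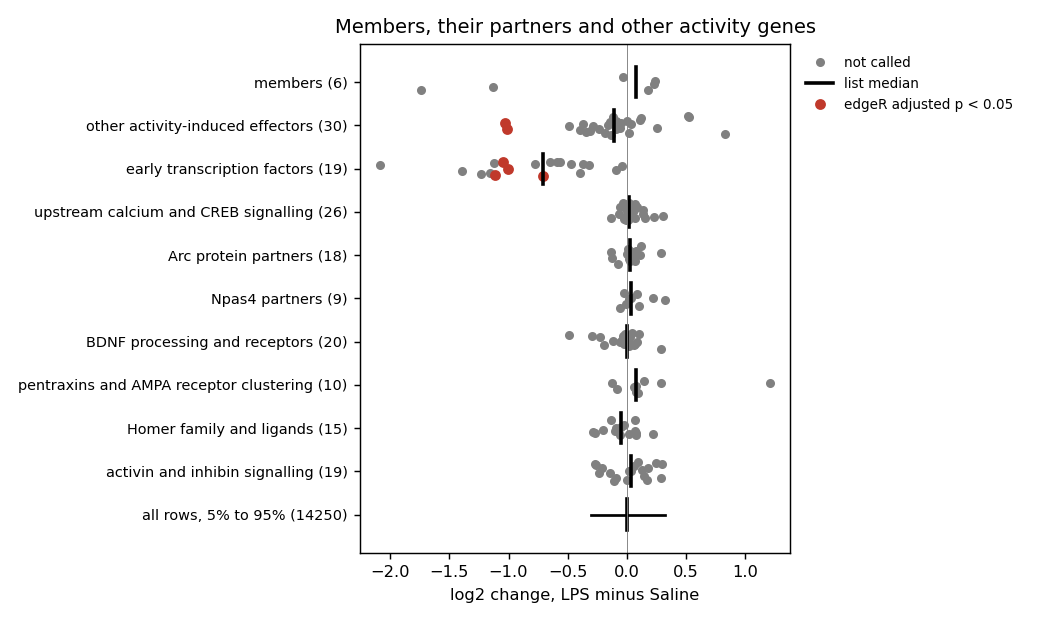
Log2 change, LPS minus Saline, of every measured gene in each list, with the list median as a black bar, genes at an edgeR adjusted p under 0.05 in red, and the 5% to 95% range of all 14250 rows (-0.30 to 0.32) at the foot. The early transcription factors lie at or below 0 throughout, and the partner lists centre near 0.

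The genes that act upstream of the members or bind their products held no edgeR call. Counted once, 112 of 115 listed genes were measured, and 0 passed in edgeR in either direction, where 0.288% of all rows did. With an unadjusted p below 0.05, 4 were higher and 3 lower, near the 7.17% of all rows that passed that limit, and their median on the log2 scale was 0.03. DESeq2 called 1 lower, Itpr1, and limma-voom 0. Every LPS library lay above every Saline library in 6 of the 112, and below in 5, where 6.84% of all rows had each order. The separations given below for single partner genes are thus no more frequent than over all rows. Exons of Itpr1, Furin, Arnt2, Camk4, Fst, Sort1, Kidins220, Homer2, Shank3, Npas3, Slc1a2, Csrnp1, Cdkn1a and Tiparp overlap exons of untested genes on the opposite strand, and those of Gria2, Gria4 and Foxp1 overlap untested genes on the same strand, so their reads are uncertain in part.

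Upstream of transcription, 0 of 26 calcium and CREB pathway genes passed, with a median of 0.01. Crtc1, a coactivator of CREB, had 305 ± 15.0 CPM in LPS and 305 ± 19.7 CPM in Saline mice (SD, n = 3 each). Log2 changes were 0.08 for Srf (SE 0.0750), 0.07 for Mef2c (SE 0.272) and -0.02 for the kinase gene Camk4 (SE 0.0890). The smallest p belonged to the calcineurin gene Ppp3ca (log2 -0.13) and to Crebbp, a histone acetyltransferase gene (0.15), with edgeR adjusted p of 0.705 and 0.770.

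For Npas4, the dimer partner gene Arnt2 had 440 ± 6.48 CPM in LPS and 434 ± 3.22 CPM in Saline mice (SD, n = 3 each), and Arnt a log2 change of 0.10 (SE 0.0789). Of the 9 partner genes 0 passed. Npas3 (0.32, SE 0.139) and Npas1 (0.22, SE 0.129), related factors, had the smallest p, with edgeR adjusted p of 0.696 and 0.782.

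For Arc, 0 of 18 partner genes passed, with a median of 0.03. Dlg4, the PSD-95 scaffold gene, differed by 0.11 on the log2 scale (SE 0.0563), and Gria2, an AMPA receptor subunit gene, by -0.12 (SE 0.0710).

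For Bdnf, 0 of 20 measured receptor and processing genes passed, with a median of 0.00. Ntrk2, the TrkB gene, had 818 ± 38.3 CPM in LPS and 803 ± 16.7 CPM in Saline mice (SD, n = 3 each). Furin, a protease gene that cleaves pro-BDNF, had 40.6, 46.1 and 42.9 CPM in LPS 1, LPS 2 and LPS 3, against 35.4, 37.9 and 32.8 CPM in Saline 1, Saline 2 and Saline 3. Its groups did not overlap, the log2 difference was 0.29 (SE 0.0800) and the edgeR adjusted p 0.369. Log2 changes were -0.03 for the sorting receptor gene Sort1 (SE 0.0588), -0.12 for the convertase gene Pcsk1 (SE 0.111) and -0.19 for Kidins220, a TrkB substrate gene (SE 0.0900).

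For Nptx2, 0 of 10 pentraxin and AMPA receptor genes passed, with a median of 0.08. Nptx1 had a log2 change of -0.09 (SE 0.0798), Gria4, the AMPA subunit gene of interneurons, 0.08 (SE 0.0575) and Cnih3, an AMPA receptor auxiliary gene, 0.15 (SE 0.0882). Nptxr, the membrane-bound pentraxin receptor gene, had 1551, 1784 and 1660 CPM in LPS 1, LPS 2 and LPS 3, against 382, 1416 and 361 CPM in Saline 1, Saline 2 and Saline 3. Every LPS library was above Saline, Saline 2 near them and the other Saline libraries several times lower, and edgeR did not call it (log2 1.21, SE 0.665, adjusted p = 0.786). Without Saline 2 the log2 change was 2.17 (edgeR adjusted p = 2.70e-05). That run leaves out the Saline library nearest to the LPS level, so its result follows from that choice and tests nothing. Over all runs with a library left out, the log2 change was 0.89 to 2.17, with edgeR adjusted p up to 0.917. Its exons overlap those of Npcd on the same strand.

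For Homer1, 0 of 15 family and ligand genes passed in edgeR, with a median of -0.05. Itpr1, the IP3 receptor gene whose product Homer proteins bind, had 715, 714 and 647 CPM in LPS 1, LPS 2 and LPS 3, against 861, 856 and 792 CPM in Saline 1, Saline 2 and Saline 3. Its groups did not overlap, with a log2 change of -0.27 (SE 0.0620), an edgeR adjusted p of 0.208 and a DESeq2 adjusted p of 0.0253. Grm5, which codes for a metabotropic glutamate receptor, differed by -0.02 on the log2 scale (SE 0.0739). The paralogue Homer2 had 120 ± 7.34 CPM in LPS and 119 ± 4.32 CPM in Saline mice (SD, n = 3 each), Homer3, which overlaps exons of another tested gene, a log2 change of -0.09 (SE 0.125), and the scaffold gene Shank3 one of -0.14 (SE 0.133).

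For Inhba, 0 of 19 measured activin and inhibin pathway genes passed, with a median of 0.03. Acvr1, a type I receptor gene of this family, had 30.7, 26.2 and 31.8 CPM in LPS 1, LPS 2 and LPS 3, against 23.4, 23.9 and 24.8 CPM in Saline 1, Saline 2 and Saline 3 (log2 0.30, SE 0.0880, edgeR adjusted p = 0.429). Smad7, an inhibitory Smad gene, differed by -0.24 on the log2 scale (SE 0.0794), with an edgeR adjusted p of 0.516, and lay below Saline in every LPS library. Log2 changes were 0.10 for the receptor gene Acvr1b (SE 0.0601), 0.02 for Acvr2a, which overlaps exons of another tested gene (SE 0.0738), 0.12 for Fstl1 (SE 0.0817) and -0.11 for Smad3 (SE 0.0942). Fst, the gene of the activin antagonist follistatin, was at 3.03 ± 1.06 CPM in LPS and 2.68 ± 0.791 CPM in Saline mice (SD, n = 3 each), and Inhbb, the other activin chain, had a log2 change of -0.14 (SE 0.136).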

How the data were processed

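Each gene has a raw read count and an FPKM value (scaled by length and depth) per mouse in the table the authors deposited. The tools TopHat2 2.1 and DESeq 1.10.1 and the build GRCm38 are listed, per the submitters' processing notes. What each was used for, how reads were counted, on which annotation and with which filter or strand setting is not given in the sources used here. Of 14250 rows, 13562 carry an Ensembl identifier, 13559 of them in GENCODE M21 (GRCm38), which gave the positions. For 23 rows with a date in place of a symbol, the symbol of the identifier was used.

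The main test on the counts was edgeR 4.0.16 (quasi-likelihood, robust, TMM, treatment as the only term, all 6 libraries) in R 4.3.3, two-sided, with Benjamini-Hochberg adjustment over all rows and a threshold of 0.05; filterByExpr removed 0 rows. Positive log2 changes mean higher in LPS, and the SE is the change divided by the root of its F. Log2 CPM used a prior count of 2. Alternatives were DESeq2 1.42.0, limma-voom (limma 3.58.1), edgeR without the robust option, RLE or total-count scaling, no filter on counts, a minimum mean of 50 counts, no newGene rows, the replicate number as a block, each library left out, and limma fits to the FPKM columns with a pseudocount of 1 or 0.1 before taking log2. Exon overlaps were found with bedtools 2.31.1. The tests were also run on counts simulated with the dispersions that edgeR estimated, and no result given here rests on that run. Named genes were the 6 members, called genes of the lists, the genes with the smallest p in each list, a fixed panel and the 5 nearest rows for members that span more than 1 on the log2 scale. Fbxo33, Spry2, Cdkn1a, Atf3, Drd2, Wfs1, Hspa1a, Hspa1b, Slc17a7 and Slc1a2 are outside that rule and were named with their values known. The members and lists were chosen with earlier results of these data known. No pair of libraries was near-identical (chi-square per degree of freedom at least 32.1). One gene that the rule names is not reported here.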

Additional observations from a re-analysis of the deposited data

How the results depend on the processing

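With 3 mice per group, a miss of the threshold does not show equal levels. The direction of Arc, Npas4, Nptx2, Homer1 and Inhba was the same in every alternative run. Arc passed with a log2 change of -1.74 in DESeq2, -1.75 in limma-voom, -1.74 in edgeR without the robust option, and -1.74 and -1.76 in limma on FPKM with a pseudocount of 1 and 0.1, so 1 member was lower in each of these; the cause was not tested. DESeq2 called 60 genes higher and 80 lower over all rows, 12 early transcription factors lower, 5 other effectors lower and 1 higher, and 1 Homer ligand lower. Limma-voom and FPKM with a pseudocount of 1 called 1 other effector lower, and FPKM called 8 genes higher with either pseudocount. Leaving out a library gave 0 to 3 other effectors lower (0 without LPS 2, LPS 3 or Saline 2, and 1 without LPS 1 or Saline 1), 3 to 7 early transcription factors lower (7 without Saline 3), 0 to 1 pentraxin list gene higher (Nptxr, without Saline 2), a Bdnf log2 change of -0.0851 to 0.00815 (above 0 without Saline 1) and a difference in the Npas4 to Arc ratio of -0.23 to 0.62. Deviations from the group means correlated over genes at -0.03, 0.03 and 0.05 for same-numbered libraries. Differently numbered LPS and Saline libraries gave -0.0878 to 0.0534. The labels used here state no pairing, and whether same-numbered mice shared a litter or batch was not tested. With the replicate block, 10 genes were higher and 21 lower, and 0 members passed. The log2 change was then -1.75 for Arc and -1.50 for Npas4. Unfiltered data equal the main data, since the filter removed 0 rows. Among genes that passed in no setting, leaving out a library moved the log2 change across 0 for 12 named genes besides Bdnf, with ranges of -0.0127 to 0.0478 for Ntrk2, -0.0753 to 0.0108 for Sort1, -0.0776 to 0.0497 for Grm5, -0.0321 to 0.0559 for Homer2, -0.0185 to 0.438 for Fst, -0.0547 to 0.0537 for Acvr2a, -0.0493 to 0.0402 for Crtc1, -0.0991 to 0.554 for Creb1, -0.116 to 0.267 for Mef2c, -0.120 to 0.0583 for Camk4, -0.107 to 0.00455 for Rgs2 and -0.0625 to 0.0947 for Scg2. On FPKM with a pseudocount of 1 and of 0.1, the sign also turned for Crtc1 (-0.00530 and -0.00539), Mef2c (-0.107 and -0.108) and Gas7 (0.0236 and 0.0235); the cause was not tested.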

Other observations

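Further genes of activity signalling varied widely within a group. Nrn1, an activity-induced surface protein gene that overlaps exons of another tested gene, had 122, 60.5 and 227 CPM in LPS 1, LPS 2 and LPS 3, against 200, 198 and 177 CPM in Saline 1, Saline 2 and Saline 3 (log2 -0.49, SE 0.526, edgeR adjusted p = 0.888). Creb1, the gene of CREB itself, had 48.0, 47.8 and 39.8 CPM in LPS 1, LPS 2 and LPS 3, against 13.3, 48.5 and 48.3 CPM in Saline 1, Saline 2 and Saline 3 (log2 0.30, SE 0.550, edgeR adjusted p = 0.939). The LPS libraries of Nrn1 were spread, with LPS 2 lowest and LPS 3 highest, and no single library stood apart. In Creb1, Saline 1 stood apart at the low end, whereas in Npas4 it was LPS 2 at the high end of its group. Slc1a2, an astrocytic glutamate transporter gene, took a low level in some libraries of both groups, with 3558, 3755 and 752 CPM in LPS 1, LPS 2 and LPS 3, against 866, 966 and 3365 CPM in Saline 1, Saline 2 and Saline 3. Slc1a2 was chosen after its values were seen.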
